A study of Arabidopsis thaliana and Zea mays with 36 samples.

Results

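Circular RNAs (circRNAs) of maize leaves were compared between well-watered plants (WW) and plants at DT2, the lowest-numbered drought level given to maize. The circRNAs described here are all those with a nonzero value in either group, 1456 of the 2174 in the maize table. Of these, 697 were listed in both groups, 257 in WW only and 502 at DT2 only. Every group was inbred line B73, sampled as the third leaf at the V4 stage from pools of at least 2 plants. Drought of the DT groups started 16 days after planting. WW and DT2 each had 2 libraries of RNA digested with RNase R and 2 of undigested RNA, labelled as biological replicates. The sources used here give no soil moisture for DT2. Libraries of the levels DT3 and DT4 served as further data, within a study of 36 samples that also covers Arabidopsis.

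A circRNA forms by back-splicing, in which a splice donor is joined to an acceptor that lies upstream of it in the same transcript. The closed circle has no free end, so it withstands RNase R, an exonuclease that removes most linear RNA, and reads that cross the back-splice junction identify it. The gene that yields it is called its host, and a host can give several circles by pairing different splice sites. In plants most described circRNAs hold exons of protein-coding genes.

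The deposited value of a circRNA, called signal here, is scaled per library by the authors. In every library all values were whole multiples of a step of 12.9 to 14.8 units, the smallest nonzero value was 2 steps, and the step was the same for long and short circRNAs. A step is treated below as 1 back-splice read, though no source says so. The summed steps were 15885 and 15260 in WW and 18803 and 17346 at DT2, so most circRNAs rest on few reads. No circRNA was at 0 in 1 library of a group and above 0 in the other, with 1220 shared zeros in WW and 975 at DT2. A 0 therefore marks a circRNA not listed for the group and carries no level, and no fold change is given against it. Among listed circRNAs the 2 libraries of a group differed by a median of 0.57 on the log2 scale in WW and 0.51 at DT2. Locations are given as deposited, with build B73 RefGen_v3 per the submitters' processing notes, and the types exon, intron and intergenic are the authors'. The sources used here do not pair maize gene IDs with names, so hosts are called by their IDs and no function is given to them.

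More circRNAs were listed at DT2 than in WW, 1199 against 954, and the circRNAs found in both groups carried most of the signal. The summed signal was 220657 and 213681 units in the WW libraries and 243235 and 254861 units in the DT2 libraries, so the groups did not overlap. With 2 libraries against 2 an exact two-sided permutation test cannot give a p below 1 in 3. The 697 shared circRNAs held 81.7% and 81.9% of the signal in WW and 83.4% and 84.0% at DT2. In bulk leaf RNA, fewer cells of a type and less RNA per cell cannot be told apart, and a change of circRNA relative to the other RNA that sets the authors' scale cannot be told apart from either.

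Among the circRNAs listed in both groups, those with the highest levels mostly lay near the same signal in WW and at DT2. GRMZM2G121878_C9, an exon circRNA of 272 bp on the minus strand of chromosome 3 from 215553115 to 215553387, had the highest signal of all members. It was at 14085 and 13583 in WW and at 13725 and 16133 at DT2, which overlap (log2 change 0.11, SE 0.17, limma adjusted p = 0.853). It alone made up 5.64% to 6.38% of the signal of these 4 libraries. GRMZM2G014902_C2, an exon circRNA on chromosome 4 from 32541073 to 32542201, was at 7821 and 6707 in WW and at 8719 and 7890 at DT2. Its DT2 libraries lay just above those of WW, by a log2 of 0.20 (SE 0.18, limma adjusted p = 0.747). Both held the same order at DT3, with means of 14827 and 6981, and at DT4, with 9764 and 5989.

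Intron and intergenic circRNAs were among the 8 highest of those listed in both groups as well. GRMZM2G153017_C1, an intron circRNA of 277 bp on chromosome 10 from 145054970 to 145055247, was at 4334 and 4131 in WW and at 3325 and 2659 at DT2. Its groups did not overlap and its log2 change was -0.51 (SE 0.20), which missed the threshold (limma adjusted p = 0.367). It was at -0.80 with adjusted p = 0.0210 when each library was centred on its median. GRMZM2G098674_C1, an intron circRNA of 750 bp on chromosome 4 from 191404766 to 191405516, was at 3209 and 3249 in WW and at 2561 and 3967 at DT2. Here the DT2 libraries lay on either side of WW. The intergenic ZmciR5, of 472 bp on chromosome 1 from 1158956 to 1159428, was at 3514 and 3067 in WW and at 3661 and 4187 at DT2, a log2 change of 0.25 (SE 0.21).

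The remaining 3 of the 8 highest were exon circRNAs. GRMZM5G883025_C1, of 600 bp on chromosome 9 from 36446113 to 36446713, was at 2417 and 2604 in WW and at 3066 and 2968 at DT2, without overlap. Its host was listed at 0 TPM in all 4 undigested libraries of these groups, as were 2 other hosts. GRMZM2G118316_C1 was at 3250 and 2534 in WW and at 2212 and 2703 at DT2, while it was not listed at DT3 and returned at a mean of 2887 at DT4. GRMZM2G013794_C5 was at 2403 and 2647 in WW and at 2807 and 2586 at DT2. For these 8 the limma adjusted p ran from 0.367 to 0.982.

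**Figure D1:**
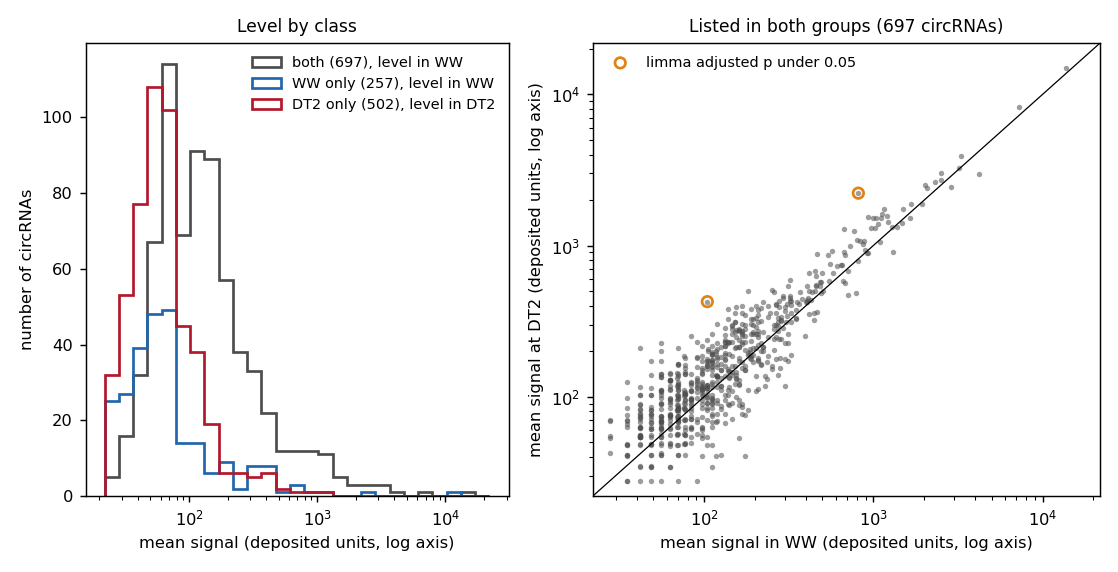
Left, number of circRNAs by mean signal in deposited units (log axis) for the 697 listed in both groups, the 257 in WW only and the 502 at DT2 only. Right, each circRNA listed in both groups by its mean signal in WW and at DT2 (log axes, means of 2 libraries), with the line of equal signal; most points lie close to the line and the 2 circRNAs that passed the test are ringed.

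Among the 697 circRNAs listed in both groups, 2 rose at DT2 and 0 fell (limma on log2 signal, Benjamini-Hochberg adjusted p under 0.05), which is 0.287% and 0% of those tested. At an unadjusted p under 0.05, 59 were higher and 8 lower. The median change was 0.28 on the log2 scale, with quartiles at -0.11 and 0.66, and 471 circRNAs lay above 0 and 226 below. By size, the estimated change of 605 circRNAs, or 86.8%, was within 2-fold in either direction. It was more than 2-fold higher for 73 and more than 2-fold lower for 19. CircRNAs listed in 1 group only do not enter these counts, so any that fell below the listing limit in a group are left out. The DT2 libraries were both above both WW libraries for 219 circRNAs, 31.4% of those tested, and both below for 69, or 9.9%. For a single circRNA such a separation has an exact two-sided permutation p of 1 in 3, so groups without overlap are weak evidence of a change. The median SE of a change was 0.62, so changes of 2-fold, and many larger ones, were mostly not detectable in single circRNAs at this depth. After each library was centred on its median, 17 circRNAs were higher and 25 lower at an unadjusted p under 0.05, and 1 rose and 1 fell at an adjusted p under 0.05.

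The clearest rise was that of GRMZM2G088501_C1, an exon circRNA of 388 bp on the minus strand of chromosome 6 from 134057624 to 134058012. Its signal was 764 and 868 in WW and 1785 and 2659 at DT2, so that both DT2 libraries were more than 2-fold above both of WW. The log2 change was 1.42 (SE 0.22, limma adjusted p = 5.82e-06). The mean signal was higher again at the other drought levels, 4455 at DT3 and 5198 at DT4. From WW to DT2 its host moved by nearly the same amount in undigested RNA. Host TPM was 4.66 and 5.96 in WW and 14.8 and 16.7 at DT2, higher by 1.41 on the log2 scale (SE 0.27; adjusted p = 0.0367, limma). The host mean was 34.7 ± 0.290 TPM at DT3 and 18.9 ± 7.87 TPM at DT4 (SD, n = 2). From DT3 to DT4 the host mean was thus lower while that of the circRNA was higher, which was not tested. Without DT2 replicate 2 the circRNA changed by 1.13 and missed the threshold (limma adjusted p = 0.589). The call of the host was lost when any library of WW or DT2 was left out, at adjusted p = 0.153 to 0.210 and log2 changes of 1.26 to 1.56.

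The other rise was that of GRMZM2G411916_C2, an exon circRNA of 2058 bp on the minus strand of chromosome 7 from 161886768 to 161888826. It was at 125 and 84.0 in WW and at 440 and 411 at DT2, without overlap, and rose by 2.05 on the log2 scale (SE 0.48; adjusted p = 0.0174, limma). At DT3 its mean was 302, and at DT4 it was not listed. Its host stood at 13.5 ± 0.728 TPM in WW and 13.3 ± 3.29 TPM at DT2 (SD, n = 2), and its change was -0.03 on the log2 scale (SE 0.20). This call was lost without WW replicate 2 (limma adjusted p = 0.132), DT2 replicate 1 (0.707) or DT2 replicate 2 (0.677), with log2 changes of 1.77 to 2.10. It was also lost in a fit of the 4 libraries compared (0.164) and after centring (0.0758). Without WW replicate 1, 13 circRNAs rose in place of 2.

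The 257 circRNAs listed in WW only were mostly of low level, with a few very high ones. Their median level in WW was 55.8 units against 112 for circRNAs listed in both groups, and 158 of them, or 61.5%, had a mean under 5 steps. The highest was GRMZM2G303631_C1, an exon circRNA of 232 bp on the plus strand of chromosome 5 from 39012793 to 39013025. It was at 10960 and 11762 in WW, the second-highest signal of the group, at 0 at DT2 and at DT3, and at a mean of 12081 at DT4. Its host was at 61.2 ± 5.03 TPM in WW and 62.6 ± 3.33 TPM at DT2 (SD, n = 2), and its change was 0.03 on the log2 scale (SE 0.15; adjusted p = 0.942, limma). Another circRNA with the same start, GRMZM2G303631_C2, picked after its values were seen, was listed in both groups, at 194 and 350 in WW and 272 and 397 at DT2. The groups overlapped for this second circRNA.

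Of the other 7 highest circRNAs of WW only, 6 were of the exon type and 1 was intergenic. ZmciR294, an intergenic circRNA of 185 bp on chromosome 7 from 153286176 to 153286361, was at 2667 and 1946 in WW and was listed in no other group. GRMZM2G055898_C1 was at 1042 and 1064 in WW, was not listed at DT2 or DT3 and had a mean of 439 at DT4. Its host was at 32.2 and 13.2 TPM in WW and at 11.9 and 9.10 TPM at DT2 (log2 change -0.93, limma adjusted p = 0.295). GRMZM2G160927_C2 was at 833 and 1092 in WW and came back at means of 1840 at DT3 and 2794 at DT4. GRMZM2G028914_C3, of 8953 bp on chromosome 1 from 77578201 to 77587154, was at 820 and 462 in WW and came back at means of 1533 at DT3 and 3349 at DT4. GRMZM2G337242_C1, GRMZM2G372928_C1 and GRMZM2G175930_C1 had WW means of 724, 711 and 607 and were all listed again at both DT3 and DT4.

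The 502 circRNAs listed at DT2 only had nearly the same median level, 56.1 units at DT2, and 304 of them, or 60.6%, had a mean under 5 steps. Their highest levels were well below those of WW only. ZmciR108, an intergenic circRNA of 1760 bp on chromosome 2 from 201807664 to 201809424, led with 893 and 1234 at DT2, had a mean of 1378 at DT3 and was not listed at DT4. ZmciR149, an intergenic circRNA of 611 bp on chromosome 3 from 211954998 to 211955609, was at 686 and 999 and kept means of 808 at DT3 and 772 at DT4. Intergenic circRNAs made up 4 of the 8 highest, the others being ZmciR414 at 530 and 426 and ZmciR413 at 530 and 411.

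The highest exon circRNA of this class was GRMZM2G168519_C1, of 560 bp on chromosome 8 from 156633060 to 156633620, at 750 and 676. GRMZM2G113174_C2 was at 505 and 705, GRMZM2G061545_C1 at 440 and 441, and GRMZM2G113062_C2 at 517 and 294. All 8 of the highest were listed again at DT3, DT4 or both. The hosts of the 4 exon circRNAs had log2 changes of -0.04 to 0.22 from WW to DT2, and none passed the test (limma adjusted p = 0.589 to 0.987).

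Whether a circRNA was listed in both groups went with its level, up to a plateau. Of 309 circRNAs with a WW mean under 5 steps, 151, or 48.9%, were listed at DT2 as well. From 5 to under 10 steps the share was 260 of 319 (81.5%), from 10 to under 30 steps 208 of 235 (88.5%), and from 30 steps 78 of 91 (85.7%). Seen from DT2, the shares listed in WW were 106 of 410 (25.9%), 238 of 390 (61.0%), 254 of 292 (87.0%) and 99 of 107 (92.5%). At the bottom, 30 circRNAs of WW and 39 of DT2 had exactly 2 steps in both libraries, the smallest nonzero value. At the top, 13 circRNAs of WW and 8 of DT2 with 30 or more steps were at 0 in both libraries of the other group. Of these 21 circRNAs, 10 of the 13 and 8 of the 8 were listed again at DT3 or DT4. The part of the authors' listing step in these zeros was not tested.

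**Figure D2:**
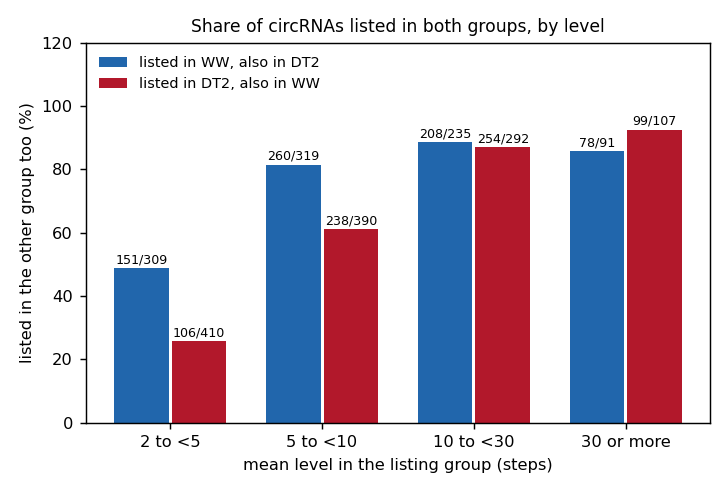
Percent of circRNAs of a group that were listed in the other group as well, by mean level in steps, with the counts above the bars. The share for circRNAs of WW is 48.9% in the lowest class and 81.5% to 88.5% in the others, and that for circRNAs of DT2 runs from 25.9% to 92.5%.

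The groups DT3 and DT4 show how often each class was listed in libraries that the split did not use, without matching the classes for level. Of circRNAs listed in both WW and DT2, 447 (64.1%) were listed at both DT3 and DT4 and 47 (6.74%) at neither. Of the WW only class, 75 (29.2%) were listed at both and 95 (37.0%) at neither, and of the DT2 only class 167 (33.3%) and 176 (35.1%). A circRNA of WW only was thus listed at DT3 or DT4 for 162 of 257 and one of DT2 only for 326 of 502, which are 63.0% and 64.9%. The classes lay closer together among circRNAs with a mean of at least 10 steps. By WW mean, 275 of 286 listed in both groups and 35 of 40 of WW only were listed at DT3 or DT4. By DT2 mean, these were 343 of 353 listed in both groups and 42 of 46 of DT2 only. WW shared 697 of its 954 circRNAs with DT2 (73.1%), 668 with DT3 (70.0%) and 666 with DT4 (69.8%), and these 3 comparisons share the WW libraries. As shares of the longer drought lists these were 58.1% at DT2, 54.6% at DT3 and 45.9% at DT4, where 1451 circRNAs were listed. DT2 and DT3, which share no library with WW, had 787 circRNAs in common, 65.6% of the list at DT2 and 64.3% of the list at DT3.

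**Figure D3:**
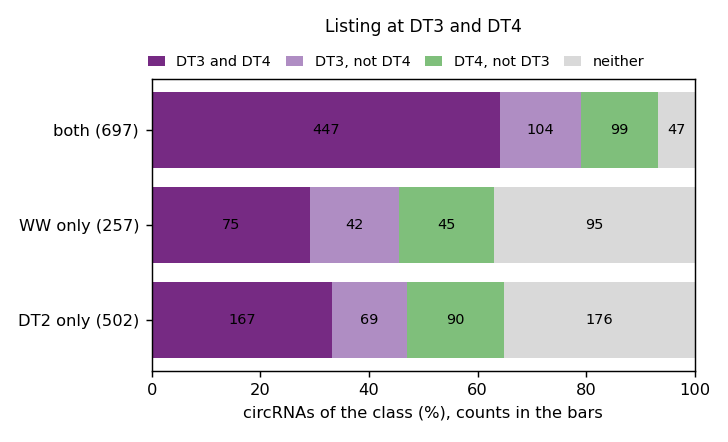
Share of each class listed at DT3 and DT4, at 1 of them or at neither, in percent of the class, with counts in the bars. The WW only and DT2 only classes have similar bars, with 37.0% and 35.1% listed at neither. The classes were not matched for level.

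Exon circRNAs were the main type in all classes. They were 538 of 697 (77.2%) of those listed in both groups, 198 of 257 (77.0%) of WW only and 366 of 502 (72.9%) of DT2 only. Intergenic circRNAs were 131 (18.8%), 54 (21.0%) and 116 (23.1%), and intron circRNAs 28 (4.02%), 5 (1.95%) and 20 (3.98%). The median span between the back-splice ends was 910 bp for circRNAs listed in both groups, 957 bp for WW only and 1144 bp for DT2 only. This span includes introns and is not the length of the circle. Spans over 10 kb were found in 30, 10 and 28 circRNAs, and 33 of these 68 were intergenic. The longest, of 178864 bp, was an intergenic circRNA of DT2 only. By position, 1455 of the 1456 members lay on chromosomes 1 to 10, and the remaining 1, GRMZM6G781015_C1, on a scaffold.

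The 1155 circRNAs of exon and intron type came from 886 host genes, of which 701 gave 1 circRNA and 185 gave several. The gene with most was GRMZM2G121878 on the minus strand of chromosome 3, with 10 circRNAs that use a small set of shared ends between 215549643 and 215553411. Its 6 circRNAs listed in both groups included C9, the highest of all, and C8, at 333 and 504 in WW and 479 and 529 at DT2. C4 was at 69.5 and 70.0 in WW and 155 and 176 at DT2, without overlap (log2 change 1.25, SE 0.68, limma adjusted p = 0.568). C2, which has the span of 3744 bp, was at 597 and 350 in WW and was listed in no other group, as were C1, at 139 and 98.0, and C7, at 27.8 and 42.0. C6 was listed at DT2 only, at 168 and 88.2. The host was at 6973 and 6260 TPM in WW and at 6144 and 8218 TPM at DT2, which overlap. Its mean was 5241 TPM at DT3 and 524 TPM at DT4.

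**Figure D4:**
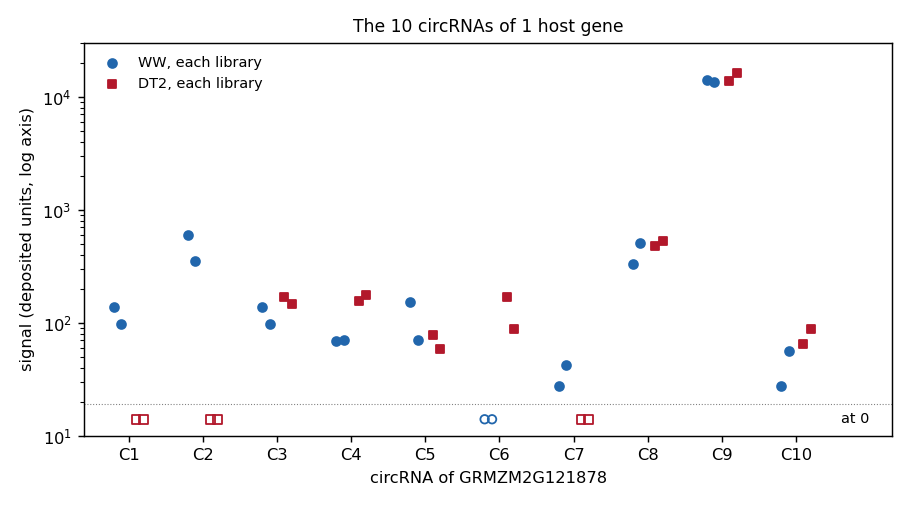
Signal of the 10 circRNAs of GRMZM2G121878 in each library of WW and DT2 (deposited units, log axis), with open symbols under the dotted line for values at 0. C9 lies at 13583 to 16133 in all 4 libraries, C1, C2 and C7 are at 0 at DT2, and C6 is at 0 in WW.

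Other hosts with many circRNAs likewise gave circles listed in both groups next to single-group circles. In 27 of the 185 hosts with several circRNAs, at least 1 circRNA was listed in WW only and another at DT2 only. GRMZM2G041613 and GRMZM2G032821, described below, were chosen as hosts of this kind. GRMZM2G068212 on chromosome 2 gave 6, of which 2 were listed in both groups, 1 in WW only and 3 at DT2 only, and its highest, C4, was at 639 and 336 in WW and 595 and 558 at DT2. GRMZM2G013794 on chromosome 7 gave 5, with C5 at 2403 to 2807 units in both groups and C1, C2 and C3 listed in WW only at 27.8 to 111 units. Its C4, also listed in both groups, was at 139 and 182 in WW and at 77.6 and 29.4 at DT2 (log2 change -1.74, SE 0.72, limma adjusted p = 0.424). GRMZM2G028914 on chromosome 1 gave 5, 4 of them listed in both groups, and the absent one was C3, its highest in WW. GRMZM2G021846 on chromosome 6 gave 5, and its C5 was at 236 and 224 in WW and at 103 and 132 at DT2, without overlap (log2 change -0.98, SE 0.70, limma adjusted p = 0.642). GRMZM2G041613 on chromosome 1 gave 4, led by C2 at 1153 and 1106 in WW and 1539 and 1675 at DT2, again without overlap (log2 change 0.51, SE 0.24, limma adjusted p = 0.518). GRMZM2G032821 on chromosome 1 also gave 4, and its highest in WW, C4, was at 264 and 336 in WW and at 194 and 162 at DT2 (log2 change -0.75, SE 0.53, limma adjusted p = 0.642).

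Some single-group circRNAs had a near twin in the other group. GRMZM2G150631 on the minus strand of chromosome 3 gave C4, from 210911594 to 210928753, in WW only, at 41.7 and 42.0. It gave C5, from 210911594 to 210928757, at DT2 only, at 168 and 73.5. In all, 4 circRNAs of WW only and 10 of DT2 only had a circRNA on the same strand with both ends within 20 bp that was listed in the other group. With such circRNAs merged, a setting chosen after the data had been seen, 691 were listed in both groups, 253 in WW only and 490 at DT2 only. Sharing of a single end was common: 73 of WW only (28.4%), 116 of DT2 only (23.1%) and 233 of those listed in both (33.4%) shared a start or an end with another member.

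Few host genes passed the test for a change in linear RNA at DT2. Of the 886 hosts, 866 were tested in undigested RNA, and 19 rose and 1 fell (limma on log2(TPM + 1), adjusted over 22216 genes). These are 2.19% and 0.115% of hosts, against 2.04% and 0.221% of all genes tested, so the hosts lay near the background. The median host changed by 0.10 on the log2 scale and the median gene by 0.14. Among the hosts of circRNAs listed in both groups 7 of 463 rose, among those of WW only 1 of 186 and among those of DT2 only 12 of 353. The difference between these shares was not tested. The count of 19 fell to between 0 and 2 when 1 library of WW or DT2 was left out, to 9 after centring and to 6 without the filter on low values.

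The 20 hosts that passed the test held 25 circRNAs, of which 17 were listed at DT2 only, 7 in both groups and 1 in WW only. Over all 1456 members, intergenic ones included, 502 were listed at DT2 only, 697 in both groups and 257 in WW only. The difference between these splits was not tested, and several of the 17 share 1 host. GRMZM2G156748 on the minus strand of chromosome 5, picked after its values were seen, was at 30.4 and 30.5 TPM in WW and at 95.3 and 84.8 TPM at DT2. Its log2 change was 1.53 (SE 0.22, limma adjusted p = 0.0141). It gave 4 circRNAs at DT2 only, C1, C2, C6 and C10, with means from 27.6 to 61.7 units, and C9 in both groups, at 27.8 and 42.0 in WW and 207 and 44.1 at DT2. GRMZM2G129451 on chromosome 9, the host that fell, went from 240 and 303 TPM in WW to 145 and 153 TPM at DT2 (log2 change -0.86, SE 0.15, limma adjusted p = 0.0321), and its circRNA C1 was listed at DT2 only, at 64.7 and 29.4. Leaving out any library ended both calls, with adjusted p = 0.0785 to 0.133 for GRMZM2G156748 and 0.0816 to 0.242 for GRMZM2G129451.

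The change of a circRNA was then set against that of its host for the 557 circRNAs listed in both groups whose host could be tested. No circRNA differed from its host at an adjusted p under 0.05 (limma interaction of group and assay, 0% called, smallest adjusted p = 0.169), and 49 did at an unadjusted p under 0.05. The median circRNA changed by 0.29 and the median of their hosts by 0.10 on the log2 scale. The median SE of the difference was 0.54. The smallest p belonged to GRMZM2G411916_C2, whose change exceeded that of its host by 2.09 (SE 0.45). It was followed by GRMZM2G481843_C1 at 2.54 (SE 0.58), from 55.6 and 28.0 in WW to 272 and 147 at DT2, and GRMZM2G327311_C2 at 1.87 (SE 0.46), from 69.5 and 42.0 to 246 and 206. GRMZM2G499182_C1 and GRMZM2G455664_C2 differed by 1.81 (SE 0.47) and 1.63 (SE 0.42). For all 5 the limma adjusted p was 0.169. Their WW means were low, from 3.0 steps for GRMZM2G481843_C1 and 4.0 for GRMZM2G327311_C2 to 10.0 for GRMZM2G455664_C2. GRMZM2G088501_C1 differed from its host by 0.01 (SE 0.41) and GRMZM2G121878_C9 by less than 0.01 (SE 0.65). The first difference depends on the 1 added to TPM. The change of host GRMZM2G088501 was 1.41 with 1 added and 1.56 with 0.1 added.

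**Figure D5:**
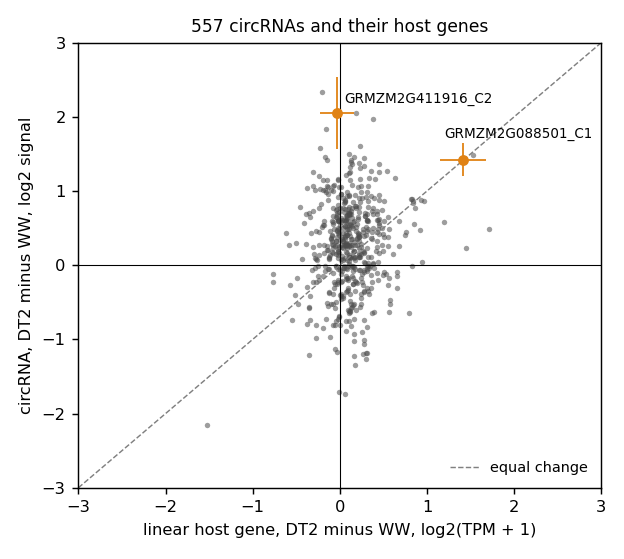
Change of each of 557 circRNAs from WW to DT2 (log2 signal) against that of its host gene in undigested RNA (log2(TPM + 1)), with the line of equal change; bars on the 2 named circRNAs are the SE of the fits. GRMZM2G088501_C1 lies on the line and GRMZM2G411916_C2 above it, with a host change of -0.03.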

How the data were processed

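The members and lists were chosen with earlier results of these data known. CircRNA signal was scaled per library by the authors, to a scale that the sources used here do not give. For linear RNA the authors deposited TPM by transcript, a unit read from the values and the header of the companion Arabidopsis table. Per the labels, reads were 150 bp paired-end. BWA, RSEM, edgeR and B73 RefGen_v3 are named, with no role or version, per the submitters' processing notes. The deposited length equals end minus start.

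Columns name a group and a number and titles a group and a letter, so libraries were assigned to groups only. CircRNAs listed in WW and DT2 were tested with limma 3.58.1 (R 4.3.3) on log2 signal, two-sided with a mean-variance trend, in 1 fit of the 8 maize circRNA libraries in which a group at 0 was missing. Its prior of 85.3 degrees of freedom means that each SE rests mostly on a spread pooled over circRNAs. Transcripts were summed to genes (63235 to 39469), and genes with TPM of at least 1 in 2 libraries were tested on log2(TPM + 1) in the same way. The interaction of group and assay used all 16 maize libraries, unpaired. p-values were Benjamini-Hochberg adjusted and called under 0.05. The fits were tested on simulated data. There the linear fit called 20 of 100 genes set to a log2 change of 1 in either direction. It called 74 of 100 set to a log2 change of 2, so many real changes of linear genes can be missed. The circRNA fit called 31 of 92 set to a log2 change of 1 and 84 of 93 set to 2. The interaction fit called 15 of 92 and 66 of 93. Of 421 circRNAs left unchanged they called 7 and 2. In both, the spread between replicates was taken from circRNAs of high level. Many more circRNAs were changed there than were called in the data, so real recovery can be lower. Named circRNAs were those called, the 8 highest of each class, the 5 hosts with most circRNAs (ties by ID), the 5 highest hosts with both WW only and DT2 only circRNAs, and the 5 smallest p against the host. Planned lists of host functions and leaf markers were not applied, because the sources used here pair no maize ID with a name, so the labelled tissue was not checked. A planned count test was not run, because the deposited values are scaled and no source says that a step is 1 read. Python 3.11.15, pandas 2.3.3 and matplotlib 3.10.9 were used.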

Additional observations from a re-analysis of the deposited data

How the results depend on the processing

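Treating a 0 as a value made 537 circRNAs higher and 266 lower in place of 2 and 0, since it reads listing as level without spread. The count of 2 was 1 with the 4 libraries compared and 1 after centring, where 1 was lower, and 0 to 13 when 1 library was left out. Called hosts numbered 6 higher and 0 lower without the filter and 9 and 2 after centring, and 0 to 2 higher and 0 lower without 1 library. The median change of shared circRNAs, 0.28, was 0.23 with a pseudocount, 0.21 to 0.32 without 1 library and -0.013 after centring, which removes it by construction. At least 5 steps in both libraries left 382 circRNAs in both groups, 115 in WW only and 251 at DT2 only, and at least 3 steps 573, 199 and 403. With a replicate block by column number 2 circRNAs rose and 0 fell, and 15 hosts rose and 1 fell. The linear call of GRMZM2G088501 was lost under the block (limma adjusted p = 0.0670), after centring (0.0654) and without the filter (0.0959), and that of GRMZM2G129451 without the filter (0.0620). Deviations of equal numbers correlated at 0.08 in circRNA and 0.11 in linear libraries over 2 pairs, and no source says that numbers pair samples. No alternative made a call of circRNA against host. Over all linear genes, 454 were higher and 49 lower, and 33 to 103 and 5 to 18 without 1 library. The count test on reads was not run. Depth limits the low circRNAs: 158 of 257 in WW only and 304 of 502 at DT2 only averaged under 5 steps.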

Other observations

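Of the 301 intergenic circRNAs, 19 (6.31%) shared a start or an end with a circRNA that has a host gene, 9 of the 131 listed in both groups, 1 of the 54 of WW only and 9 of the 116 of DT2 only. By strand, 284 of the 502 circRNAs of DT2 only lay on the plus strand and 218 on the minus strand, against 331 and 366 of those listed in both groups and 118 and 139 of WW only. No test was made of these counts.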
